A study of Mus musculus with 3 samples.

Results

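DNA replication genes were followed through spatial transcriptomes of thymus sections from 2 Trp53-/- mice and 1 wild-type (WT) mouse. The set holds 44 genes listed by symbol, of the 54838 genes in the count tables. They were chosen by function and not by a measured value, though with earlier results of these data known. All 44 were found and had counts in each of the 3 sections. The sections KO1134 and KO1308 came from female Trp53-/- mice of 17 and 21 weeks, and the section WT1101 came from a female WT mouse of 17 weeks, all C57BL/6. The labels name the mice Trp53-/- with no promoter or Cre that would limit it to a cell type, and the labels give no other allele or agent. Each section is 1 mouse, the WT group is a single section, and the permeabilisation time of the tissue also differed between WT and Trp53-/- sections, so genotype and section preparation cannot be told apart.

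A cell copies its genome once per division. Before S phase, the origin recognition complex together with CDC6 and CDT1 loads the ring-shaped MCM helicase on origins, and geminin (Gmnn) blocks further loading once copying has begun. CDC45 and the GINS complex then switch the helicase on, polymerase alpha with primase lays down primers, and polymerases delta and epsilon extend them on the sliding clamp PCNA, which the RFC complex opens and closes around DNA. Ribonucleotide reductase, thymidylate synthase, thymidine kinase and dUTPase supply the deoxynucleotides, CAF-1, UHRF1 and DNMT1 restore chromatin and DNA methylation behind the fork, and claspin and TIPIN guard a stalled fork. Many of these genes are transcribed under E2F factors, which p53 can restrain through the CDK inhibitor p21. In the thymus, immature thymocytes divide mostly in the outer cortex, whereas most later CD4+CD8+ cortical thymocytes and the mature thymocytes of the medulla divide little.

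Levels are given as CPM, the UMIs (unique molecules) of a gene per 1000000 UMIs of the same area, with exact Poisson intervals of 95% that cover counting error only. Spots were summed into square bins of 27 µm, and 12009, 16140 and 27104 tissue bins with at least 300 genes were kept for KO1134, KO1308 and WT1101. They held 31120116, 17585464 and 40575395 UMIs, or a mean of 2591, 1090 and 1497 UMIs per bin. Bins were called B-cell zone where B-cell genes had more UMIs than thymus genes in the bins around them. Other bins within 100 µm of the outer edge were called rim, and the rest were assigned to cortex or medulla by epithelial genes. Trp53, the targeted gene, stood at 17.0 CPM in KO1134 (529 UMIs), 25.1 CPM in KO1308 (442 UMIs) and 79.9 CPM in WT1101 (3243 UMIs), so transcripts of the locus remained in both Trp53-/- sections, and the deleted part of the gene is not given in the sources used here. A further 901, 1459 and 7730 bins met none of these classes. Cortical epithelial markers, which drew the compartments, summed to 2308 to 2360 CPM in the 3 cortices. Medullary epithelial markers summed to 1803 and 1562 CPM in the medullas of KO1134 and KO1308 but to 724 CPM in that of WT1101. Both compartments were cut relative to the share of these genes in the same section, so the medullas were drawn at unlike marker levels. B-cell markers, of which 3 of 5 drew the B-cell zones, reached 1034 and 778 CPM in these zones of KO1134 and KO1308. WT1101 had no bin of that class. T-lineage markers were lower in both Trp53-/- sections for 5 of 5 genes, at 958 and 1455 CPM against 2522 CPM in WT1101, none of them at 0. Between the chips 54718 to 58533 spot barcodes were shared, of 1658021 to 1691639 barcodes per chip, and the reason was not tested. A barcode names a position, so a shared barcode is not a shared cell.

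Summed over the 44 genes, replication transcripts made up 3971 CPM (3936–4006) of the cortex in KO1134, 5097 CPM in KO1308 and 4987 CPM (4949–5026) in WT1101. The medulla held 2163, 2648 and 3266 CPM in the same order, the lowest of the 3 thymic compartments in each section. The rim held 3173, 3922 and 5822 CPM. The order of the levels was thus cortex, rim, medulla in both Trp53-/- sections and rim, cortex, medulla in WT1101. The B-cell zones were lower again, at 1370 CPM in KO1134 and 2350 CPM in KO1308. In bulk sums of this kind, fewer cycling cells and less replication RNA per cycling cell cannot be told apart.

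**Figure D1:**
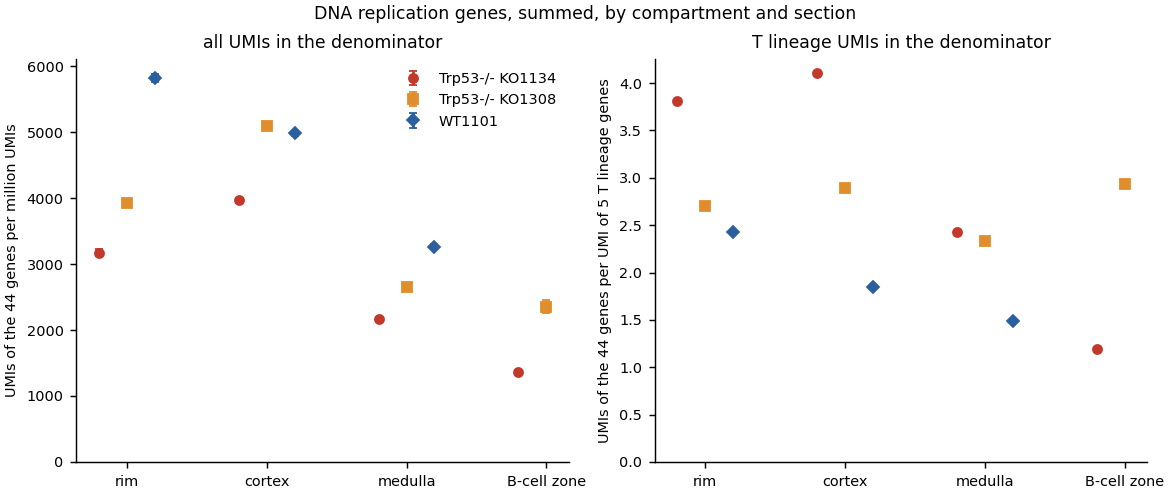
Left, summed level of the 44 replication genes (y axis, CPM) by compartment (x axis) in KO1134, KO1308 and WT1101, with exact 95% Poisson intervals. Right, the same sums per UMI of 5 T-lineage genes, without intervals. In CPM the cortex lies above the medulla in the 3 sections, and the rim lies below the cortex in both Trp53-/- sections but above it in WT1101, while per T-lineage UMI both Trp53-/- sections lie above WT1101 in rim, cortex and medulla.

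The map gives each bin the summed level of the window of 7 x 7 bins around it. These values ran from 1106 to 4422 CPM (5th to 95th percentile, median 2848) in KO1134, from 1619 to 6221 CPM (median 4015) in KO1308 and from 2396 to 6645 CPM (median 4527) in WT1101. KO1308 consisted of separate tissue pieces, and its largest pieces repeated the compartment difference, with 5186 CPM in cortex and 2896 CPM in medulla of one piece and 4880 and 2493 CPM in the other. At the border of the array, where the edge is a cut, lay 7, 93 and 77 bins of KO1134, KO1308 and WT1101. The pieces come from 1 mouse and are not replicates.

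**Figure D2:**
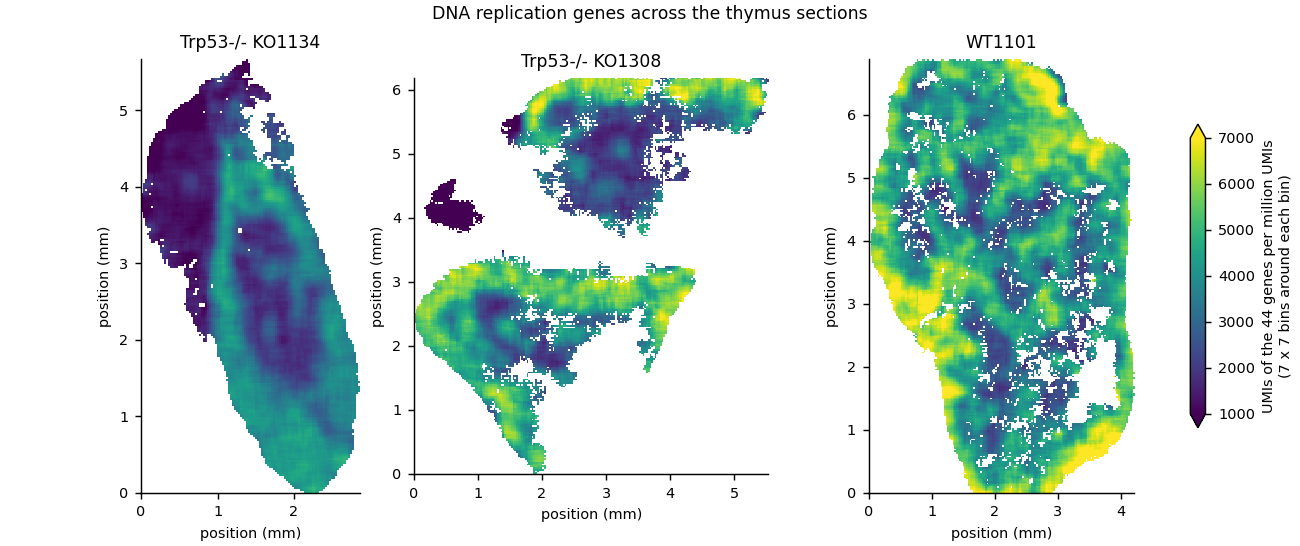
Maps of the 3 sections with each tissue bin coloured by the summed CPM of the 44 replication genes in the window around it, with axes as positions on the chip in mm. High fields follow the cortex in KO1134 and KO1308, and in WT1101 they also reach the outer edge.

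Cortex over medulla, the summed set was 1.84-fold higher (1.80–1.87) in KO1134, 1.92-fold higher (1.88–1.97) in KO1308 and 1.53-fold higher in WT1101. The medullas were drawn at unlike levels of medullary markers, and the part of this in the folds was not tested. Single genes moved with the sum: 44 of 44 were higher in the cortex of KO1134, 43 of 43 with enough UMIs in KO1308, and 43 of 44 in WT1101, the exception being Rfc2. Tested with edgeR's quasi-likelihood test over the 3 sections, with the section as a block and Benjamini-Hochberg adjustment over all genes, 41 of the 44 genes were higher in the cortex, 0 were lower, and Rfc2, Gins4 and Pole2 did not pass. Over all 17386 genes tested, 14.6% were higher and 16.9% lower. The median log2 fold of the 44 genes was 0.83, beside 0.04 for all genes tested. T-lineage markers were also higher in the cortex of each section for 4 of 5 genes, and their part in the result was not tested. Of these markers only Themis had a part in drawing the compartments, among the thymus genes that B-cell genes had to exceed.

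Origin licensing genes were higher in cortex for 11 of 11. Mcm6, a subunit of the helicase ring with more UMIs than any other licensing gene, stood at 243, 285 and 257 CPM in the cortex of KO1134, KO1308 and WT1101 and at 128, 155 and 186 CPM in the medulla (log2 fold 0.82, SE 0.117, edgeR adjusted p = 0.00101). Mcm7, another subunit, stood at 298, 262 and 244 CPM in cortex and at 134, 103 and 162 CPM in medulla (log2 fold 1.09, SE 0.139, edgeR adjusted p = 0.000615). For Mcm6 and Mcm7 the 3 cortices lay above the 3 medullas. Mcm7 shares its locus with a microRNA cluster and with parts of Cops6 and Ap4m1, and reads from there could be counted for it. Mcm2, Mcm3, Mcm4 and Mcm5, the other subunits of the ring, had log2 folds of 0.69 to 0.81. Mcm2 stood at 120, 231 and 180 CPM in cortex and 73.2, 134 and 139 CPM in medulla, so that the KO1134 cortex lay below the other medullas and the fold is visible only within a section.

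Orc1, the largest subunit of the origin recognition complex, had the largest log2 fold of the set, 1.32 (SE 0.223, edgeR adjusted p = 0.00233), but a low level, 11.7, 9.73 and 8.62 CPM in cortex and 4.77, 4.55 and 3.45 CPM in medulla. Cdc6, the loader of the ring, stood at 35.7, 40.5 and 48.8 CPM in cortex and 14.6, 15.2 and 24.0 CPM in medulla (log2 fold 1.30, edgeR adjusted p = 0.000271). For Orc1 and Cdc6 the 3 cortices lay above the 3 medullas. Gmnn, the inhibitor of licensing, went the same way as these genes. It stood at 72.8, 112 and 130 CPM in cortex and 40.6, 49.8 and 75.9 CPM in medulla (log2 fold 0.99). Cdt1, its target, had a log2 fold of 0.89, and Orc6, another origin recognition subunit, one of 0.86.

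Among the genes of helicase activation 5 of 6 were higher in cortex. Mcm10, which helps the helicase start, stood at 50.4, 54.6 and 58.7 CPM in cortex and 25.2, 21.2 and 35.3 CPM in medulla, with no overlap (log2 fold 1.08, SE 0.139). The GINS subunits were uneven. Gins1 had a log2 fold of 1.13 and Gins2 and Gins3 of 0.64 and 0.68, whereas Gins4, at 23.6, 23.8 and 33.1 CPM in cortex and 21.7, 18.8 and 26.7 CPM in medulla, did not pass (log2 fold 0.33, SE 0.136, edgeR adjusted p = 0.0966). The differences between these subunits were not themselves tested. Cdc45, the partner of GINS on the helicase, had a log2 fold of 0.76.

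Polymerases and primase were higher in cortex for 8 of 9 genes. Pola1, the catalytic subunit of polymerase alpha, stood at 70.9, 52.5 and 68.5 CPM in cortex and 27.4, 22.7 and 34.0 CPM in medulla (log2 fold 1.26, SE 0.127, edgeR adjusted p = 0.000223). Its second subunit Pola2 changed less, with 42.1, 51.9 and 43.2 CPM in cortex and 29.3, 34.0 and 36.5 CPM in medulla (log2 fold 0.52). Prim1 and Prim2, the subunits of primase, had log2 folds of 1.00 and 0.88. Pole, the catalytic subunit of the leading-strand polymerase epsilon, had one of 1.04, while its subunit Pole2, measured at 10.5 to 21.5 CPM in cortex and 8.59 to 13.9 CPM in medulla, did not pass (log2 fold 0.40, edgeR adjusted p = 0.116). Pold1, the catalytic subunit of polymerase delta, stood at 87.4, 81.5 and 69.0 CPM in cortex and 46.8, 51.8 and 51.2 CPM in medulla, with a log2 fold of 0.73. Its subunit Pold2 had one of 0.69, and Pold3, the smallest fold of this group that passed, of 0.41 (SE 0.108, edgeR adjusted p = 0.0188).

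Of the clamp, the clamp loader and the flap nuclease, 6 of 7 genes were higher in cortex. Pcna, the sliding clamp, stood at 481, 431 and 551 CPM in cortex and at 223, 214 and 327 CPM in medulla, without overlap (log2 fold 1.03, SE 0.109, edgeR adjusted p = 0.000259). A processed copy, Pcna-ps2, was counted with 4221, 3200 and 9878 UMIs beside 10131, 5676 and 21877 UMIs for Pcna in KO1134, KO1308 and WT1101, so reads of both loci may be split and the level of Pcna is uncertain. Rfc1 and Rfc3 to Rfc5, subunits of the loader, had log2 folds of 0.44 to 0.86, and Fen1, which trims the flaps of Okazaki fragments, one of 0.77. Rfc2 stood apart: 106, 162 and 80.5 CPM in cortex and 98.2, 131 and 88.9 CPM in medulla, which overlap, with a log2 fold of 0.16 (SE 0.112, edgeR adjusted p = 0.307). Rfc2 (chr5:134581366-134601805, plus strand) shares 1784 bases with Lat2 on the other strand, an adaptor gene of B and myeloid cells that was counted at 20.9, 20.5 and 6.51 CPM in cortex and 31.9, 35.3 and 16.4 CPM in medulla. Whether strand was used in counting is not given in the sources used here, and the part of Lat2 in the Rfc2 values was not tested.

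Nucleotide supply genes were higher in cortex for 5 of 5. Dut, the dUTPase that keeps uracil out of DNA, had the smallest adjusted p of the set, with 303, 379 and 467 CPM in cortex and 132, 142 and 250 CPM in medulla (log2 fold 1.24, SE 0.116, edgeR adjusted p = 0.00018). Rrm2, the subunit of ribonucleotide reductase whose supply rises in S phase, stood at 156, 411 and 385 CPM in cortex and 70.9, 190 and 223 CPM in medulla (log2 fold 1.08, SE 0.11). Its KO1134 cortex lay below the medullas of the other sections, but within KO1134 the cortex was higher too. Tyms, thymidylate synthase, had a log2 fold of 1.24, Rrm1, the other reductase subunit, of 0.89, and Tk1, thymidine kinase, of 0.74.

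Chromatin copying genes were higher in cortex for 4 of 4 and fork protection genes for 2 of 2. Uhrf1, which reads hemimethylated DNA, stood at 89.3, 217 and 187 CPM in cortex and 44.4, 89.0 and 113 CPM in medulla (log2 fold 1.07), and Dnmt1, the maintenance methyltransferase it recruits, at 124, 211 and 196 CPM in cortex and 82.1, 125 and 132 CPM in medulla (log2 fold 0.71). Within each section both were higher in cortex, while the KO1134 cortex lay below the WT1101 medulla. Chaf1a and Chaf1b, the large and middle subunits of CAF-1, had log2 folds of 0.49 and 0.83. Clspn, claspin, stood at 52.7, 72.1 and 90.6 CPM in cortex and at 22.0, 24.9 and 45.7 CPM in medulla, so the 3 cortices lay above the 3 medullas (log2 fold 1.31, SE 0.13, edgeR adjusted p = 0.000221). Tipin, a partner of claspin at the fork, stood at 59.5, 120 and 80.9 CPM in cortex and 33.3, 57.2 and 57.7 CPM in medulla (log2 fold 0.86). Chaf1a was lost when WT1101 was left out (40 genes passed, beside 32.0% of all genes in either direction), and Gins3, Pola2, Pold3, Rfc5 and Chaf1a were lost when KO1308 was left out (36 passed, beside 23.0%). Without the section block 0 passed with edgeR, beside 0.00575% of all genes in either direction. In that fit 34 of the 44 had an unadjusted p under 0.05, beside 2403 of the 17386 genes tested.

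**Figure D3:**
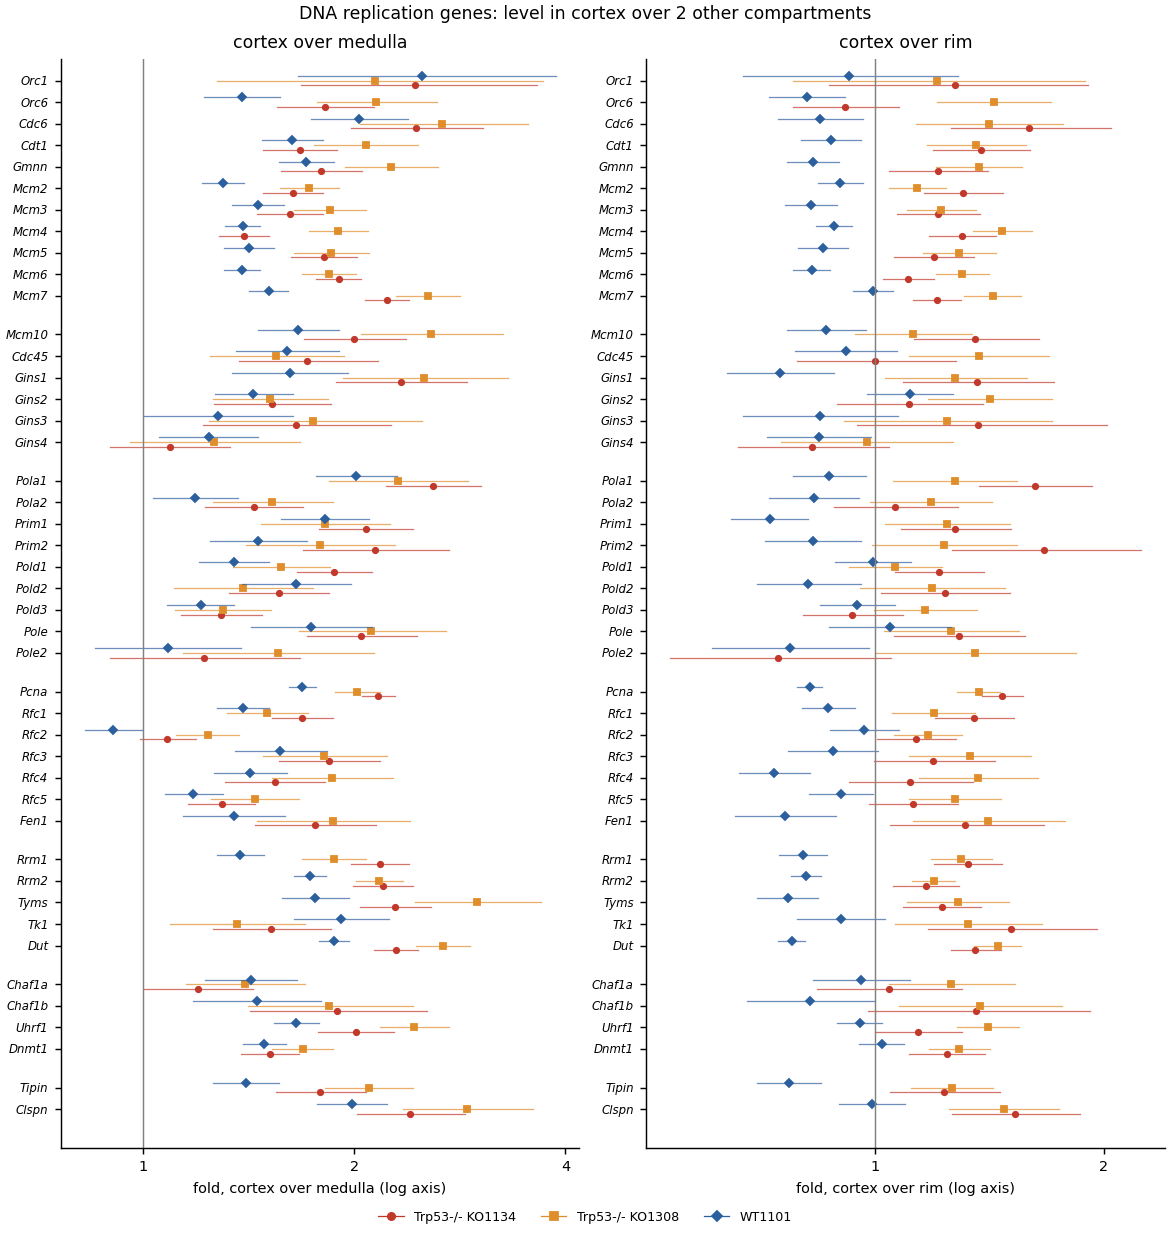
Fold of cortex over medulla (left) and of cortex over rim (right), on log axes, for each of the 44 replication genes grouped by role, with 1 point per section and 95% intervals for counting error. On the left all points but Rfc2 in WT1101 lie above 1, and on the right 3 of the 44 WT1101 points do.

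Promoter sequence was looked at because the 44 genes moved together between compartments. RefSeq windows from 250 bases before to 50 after the start (GRCm38.p6) matched 35 of the 44 genes, with 41 windows, and were searched on both strands for the E2F-type letters TTTCCCGC, TTTGGCGC, TTTCGCGC and TTTGCCGC, where overlapping matches count as 1 window. Of the 41 windows 16 (39.0%) held a match, beside 2.26% of 32851 windows of the same length over all genes. The windows of the set were also richer in G and C, with a median of 58.3% beside 52.7%. The median log2 fold of cortex over medulla was 0.84 for the 16 genes with a match and 0.77 for the 19 genes without one. For the mitosis genes it was 1.19, and a link between the letters and the fold was not tested. Of the 4 genes with the smallest p for cortex against medulla, Dut and Rrm2 held no such letters in their windows, while Clspn and Pola1 held 1 match each and are shown with it in capitals. The window of Clspn is chr4:126556730-126557029 on the plus strand, with GCGCGAAA from base 272 of 300, and that of Pola1 is chrX:93632106-93632405 on the minus strand, with GCGCCAAA from base 113.
Clspn: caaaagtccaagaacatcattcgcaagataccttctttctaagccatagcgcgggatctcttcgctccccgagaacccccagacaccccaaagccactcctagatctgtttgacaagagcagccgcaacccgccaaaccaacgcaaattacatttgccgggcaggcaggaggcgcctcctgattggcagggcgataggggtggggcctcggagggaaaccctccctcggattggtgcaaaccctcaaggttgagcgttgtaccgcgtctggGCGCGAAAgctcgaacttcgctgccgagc
Pola1: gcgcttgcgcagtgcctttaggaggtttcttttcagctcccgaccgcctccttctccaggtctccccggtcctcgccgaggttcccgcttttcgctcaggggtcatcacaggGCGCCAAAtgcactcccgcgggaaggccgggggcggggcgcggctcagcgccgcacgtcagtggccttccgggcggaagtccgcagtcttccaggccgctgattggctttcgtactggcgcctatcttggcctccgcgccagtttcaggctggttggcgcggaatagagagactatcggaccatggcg
The match in Clspn lies 21 bases after the start and that in Pola1 138 bases before it. A match is a string of letters and was not tested as a binding site.

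Toward the outer edge the sections of the 2 genotypes went opposite ways. Cortex over rim, the summed set was 1.25-fold in KO1134, 1.30-fold in KO1308 and 0.857-fold in WT1101. Of the single genes, 40 of 44 were higher in cortex than in rim of KO1134 and 42 of 43 in KO1308, but 3 of 44 in WT1101. The median fold was 1.23, 1.29 and 0.851, beside 1.08, 1.09 and 1.11 for all genes. By role the fold was 1.16 to 1.36 in the Trp53-/- sections and 0.796 (nucleotide supply) to 0.976 (chromatin copying) in WT1101. The test of cortex against rim over the 3 sections called 0 of the 44 genes with edgeR, beside 0.0373% of all genes higher and 1.22% lower. DESeq2 called 0 too, beside 1.45% of all genes in either direction. By edgeR 1 gene, Gins4, had an unadjusted p under 0.05, beside 2233 of the 16096 genes tested. With WT1101 left out, 9 passed, all higher in cortex (Cdc6, Cdt1, Mcm4, Mcm7, Pola1, Pcna, Rrm1, Dut and Clspn). In that fit 1631 of 16482 genes (9.9%) were called in either direction, beside 202 of 16096 with the 3 sections, so more was called over all genes as well.

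The difference between the genotypes in the cortex over rim fold was fitted as a term of its own, a choice made after the values had been seen. The log2 difference, Trp53-/- minus WT, was above 0 for 44 of 44 genes, from 0.12 to 0.88 with a median of 0.58. By edgeR 21 of the 44 were higher in Trp53-/- and 0 lower, beside 2.7% and 2.39% of the 18130 genes tested. This model left 1 residual degree of freedom and rests on a single WT section. DESeq2 called 2, Pcna and Dut, beside 183 (1.01%) of all genes. It gave 15 of the 44 an unadjusted p under 0.05, beside 745 of the 18130 genes tested.

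Licensing gave 7 of the 21 genes (Cdc6, Cdt1, Gmnn, Mcm3, Mcm4, Mcm5, Mcm6), the clamp group 4 (Pcna, Rfc1, Rfc4, Fen1), nucleotide supply 4 (Rrm1, Rrm2, Tyms, Dut), polymerases and primase 3 (Pola1, Prim1, Prim2), fork protection 2 (Tipin, Clspn), helicase activation 1 (Gins1) and chromatin copying 0. Dut stood at 223, 261 and 600 CPM in the rim of KO1134, KO1308 and WT1101 beside 303, 379 and 467 CPM in cortex (log2 difference 0.88, SE 0.167, edgeR adjusted p = 0.000145). Pcna stood at 327, 315 and 671 CPM in rim beside 481, 431 and 551 CPM in cortex (0.82, SE 0.168, edgeR adjusted p = 0.000481). For both genes the rim was the high compartment in WT1101 and the cortex in both Trp53-/- sections. Rrm1 went the same way, with 125, 161 and 190 CPM in rim beside 166, 209 and 153 CPM in cortex (0.74, SE 0.171, edgeR adjusted p = 0.00283). Prim1, at 48.0, 40.7 and 75.8 CPM in rim, and Mcm4, at 124, 165 and 315 CPM, had log2 differences of 0.83 and 0.68. In all, 37 of the 44 genes were higher in the cortex of both Trp53-/- sections and lower in that of WT1101, and the other genes were Orc6, Gins2, Gins4, Pold3, Pole, Pole2 and Dnmt1.

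The rim of the Trp53-/- sections held adipose transcripts. White fat markers, 5 of 5 higher there than in WT1101 and none at 0, summed to 2272 and 2974 CPM in the rim of KO1134 and KO1308 and to 98.3 CPM in WT1101. When rim bins were kept only if thymus genes took at least 50% of their usual share, 77.4%, 82.5% and 98.7% of the rim bins remained and fat markers stood at 529, 691 and 98.5 CPM. Over this rim the summed set in cortex was 1.11-fold (1.09–1.13) in KO1134, 1.09-fold (1.07–1.11) in KO1308 and 0.854-fold (0.843–0.865) in WT1101. The folds of the Trp53-/- sections were thus smaller than over the whole rim, at 1.25 and 1.30, and fat markers were still above those of WT1101. The genotype difference passed for 15 of the 44 genes in this fit, where 4.39% of all genes were called in either direction. Cortex over medulla, the same model called 0 of the 44 with edgeR, beside 0.204% of all genes higher and 0.0256% lower. DESeq2 called 0 too, beside 0% of all genes. By edgeR 1 gene, Mcm7, had an unadjusted p under 0.05, beside 1113 of the 19561 genes tested. The log2 difference over medulla was above 0 for 38 of the 44, with a median of 0.28 beside 0.07 for all genes.

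The summed level was also followed by distance, from the outer edge over all bins but those of the B-cell zones, and from the medulla within the cortex. From the outer edge inward, in steps of 0–100, 100–200, 200–400 and over 400 µm, the summed level was 5822, 5634, 5108 and 4311 CPM in WT1101, falling at each step. In KO1134 it was 3173, 3702, 3608 and 2867 CPM and in KO1308 3922, 4499, 4252 and 3080 CPM, highest between 100 and 200 µm in both. White fat markers changed along the same steps, with 2272, 1284, 633 and 162 CPM in KO1134 and 2974, 1534, 247 and 198 CPM in KO1308, against 88.7 to 102 CPM in WT1101, and their part in the profile was not tested. Within the cortex, from the medulla outward in steps of 0–50, 50–100, 100–200 and over 200 µm, it was 4206, 4429, 4497 and 5489 CPM in WT1101 and 3945, 4469, 5193 and 5662 CPM in KO1308. In KO1134 it was 3565, 3687, 4110 and 4089 CPM, level beyond 100 µm. These are sums over bins of 1 mouse each and carry no test.

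**Figure D4:**
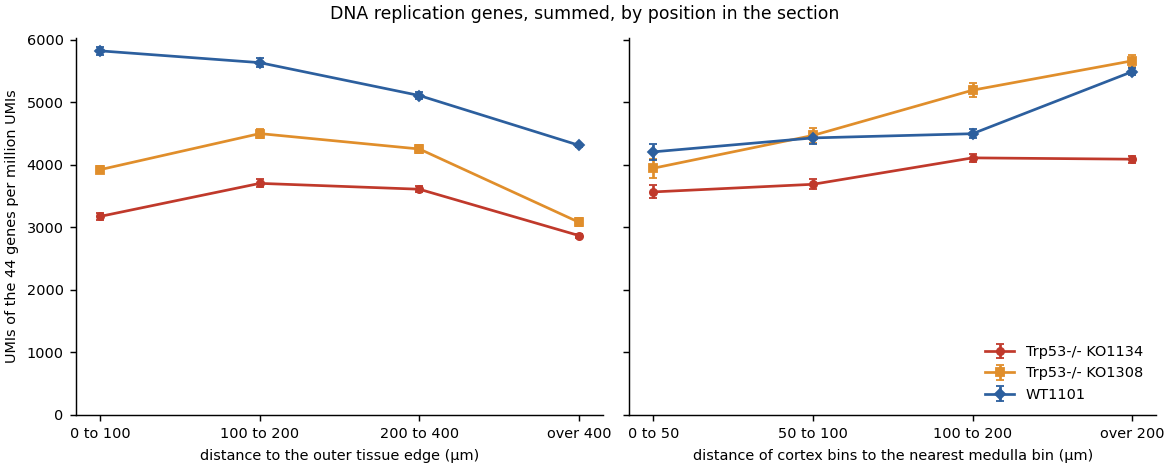
Summed CPM of the 44 replication genes (y axis) against distance in µm from the outer edge of the tissue and, within the cortex, from the nearest medulla (x axes), with 1 line per section and exact 95% Poisson intervals. WT1101 is highest at the edge, KO1134 and KO1308 peak between 100 and 200 µm, and the level in the cortex is lowest beside the medulla in each section.

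B-cell zones, which no WT1101 bin met, held the fewest replication transcripts, with the cortex 2.90-fold higher in KO1134 and 2.17-fold higher in KO1308. With edgeR over these 2 sections 15 of the 44 genes were higher in the cortex and 0 lower, beside 2.95% and 2.91% of the 16595 genes tested. They were Mcm2, Mcm7 and Gmnn of licensing, Mcm10, Cdc45 and Gins1 of helicase activation, Pole, Pcna, the nucleotide genes Rrm1, Rrm2, Tyms and Dut, Uhrf1, Tipin and Clspn. Rrm2 fell from 156 and 411 CPM in the cortex of KO1134 and KO1308 to 27.2 and 111 CPM in the B-cell zone. Tyms stood at 17.2 and 30.3 CPM there beside 116 and 77.1 CPM in cortex, and Gins1 at 6.13 and 5.22 CPM beside 34.9 and 40.3 CPM. The zone of KO1308 held 429 bins, and the count of genes that passed moved between 0 and 36 with the processing. The 0 came without the section block, where 0.259% of all genes were called in either direction, and the 36 with all 4 compartments in one fit, where 23.8% were.

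Trp53-/- beside WT over all tissue, the summed level was 2876 CPM in KO1134, 3913 CPM in KO1308 and 4840 CPM in WT1101, a ratio of 0.594 and 0.808. In the cortex the ratio was 0.796 in KO1134 and 1.02 in KO1308, in the medulla 0.66 and 0.81, and in the rim 0.55 and 0.67. The Trp53-/- sections thus lay on either side of WT in the cortex and below it in the other compartments. Both ratios share the single WT section. Cortex and medulla were cut within each section, so their ratios compare areas drawn at unlike marker levels. By edgeR 0 of the 44 genes differed over all tissue, beside 0.0935% of all genes higher and 0.0134% lower. Their log2 folds ran from -1.12 to 0.35, with a smallest edgeR adjusted p of 0.347. An unadjusted p under 0.05 was reached by 5 (Clspn, Gmnn, Cdc6, Rfc4 and Dut), beside 2770 of the 22450 genes tested. DESeq2 called 0 of the 44, beside 1.8% of all genes in either direction. In the cortex 0 of the 44 differed with edgeR, beside 0% of all genes higher and 0.00524% lower. There 0 had an unadjusted p under 0.05, beside 1499 of the 19076 genes tested, and DESeq2 called 0, beside 0.498% of all genes.

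Section by section, without a test, 24 of the 44 genes in KO1134 were at least 1.5-fold lower than in WT1101 over all tissue and 0 were 1.5-fold higher, beside 19.3% and 25.9% of all 17400 genes with enough UMIs. In KO1308 9 were lower (Dut, Pcna, Pola1, Clspn, Tyms, Gins4, Cdt1, Cdc6, Gmnn) and 1 higher (Rfc2), beside 12.8% and 31.9% of all genes. In the cortex of KO1134 10 were lower (Dut, Clspn, Mcm2, Gins2, Dnmt1, Tk1, Gmnn, Rrm2, Mcm4, Uhrf1) and 1 higher (Pole), beside 21.7% and 22.7%. In the cortex of KO1308 0 were lower and 3 higher (Pole, Rfc2, Pole2), beside 12.4% and 25.1%. The median ratio in cortex was 0.823 in KO1134 and 1.08 in KO1308, beside 0.985 and 1.07 for all genes.

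The Trp53-/- sections differed from each other most in Rrm2 and Uhrf1. Rrm2 over all tissue stood at 105 CPM in KO1134, 316 CPM in KO1308 and 372 CPM in WT1101, a ratio of 0.284 in KO1134 and 0.85 in KO1308, and in cortex the ratio was 0.404 and 1.07. Uhrf1 stood at 61.7, 153 and 172 CPM over all tissue, a ratio of 0.359 in KO1134. For both genes KO1134 was the low section, and KO1308 lay nearer to WT1101. The next lowest ratios of KO1134 over all tissue were those of Clspn (0.411), Gmnn (0.412) and Dut (0.45). In KO1308 the lowest were Dut (0.589), Tyms (0.597), Pcna (0.599), Clspn (0.628) and Pola1 (0.629), so Dut and Clspn stood at the low end of both. Within the cortex the low end of KO1134 also held Gins2 (0.538), Gmnn (0.561) and Mcm4 (0.582), and that of KO1308 Gins4 (0.72), Pola1 (0.766), Pcna (0.783), Clspn (0.796) and Tk1 (0.797). At the other end, the ratio of Pold2 in cortex was 1.33 in KO1134, that of Orc1 1.35, and that of Tipin 1.48 in KO1308. Pole was high in both Trp53-/- cortices, at 43.8 and 44.0 CPM beside 28.1 CPM in WT1101, a ratio of 1.56 in each. Rfc2 was high in both too, with a ratio of 1.32 and 2.01 in cortex, and shares bases with Lat2. By role, the cortex ratio of KO1134 and KO1308 was 0.58 and 1.14 for chromatin copying, 0.65 and 1.12 for fork protection, 0.67 and 0.97 for nucleotide supply, 0.77 and 1.02 for helicase activation, 0.82 and 1.04 for licensing, 0.92 and 0.95 for the clamp group, and 1.06 and 1.07 for polymerases and primase.

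**Figure D5:**
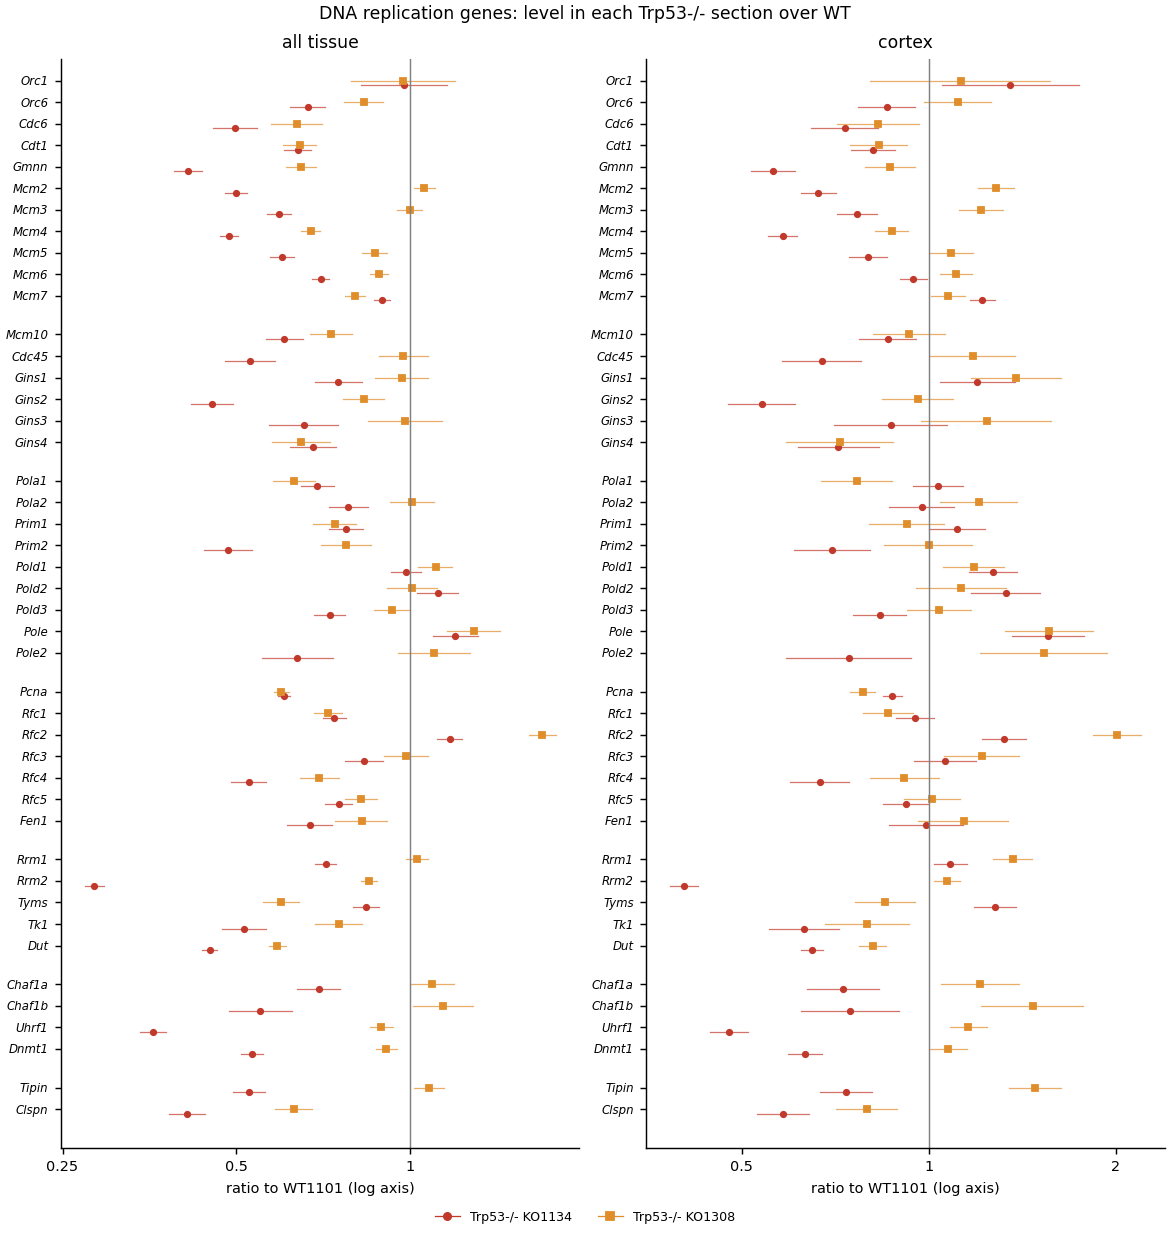
Ratio of CPM to WT1101 (x axis, log scale) for each of the 44 replication genes, grouped by role, over all tissue and in cortex, with KO1134 and KO1308 as separate points and 95% intervals for counting error. Over all tissue most points lie below 1, with medians of 0.647 and 0.859, and in cortex the medians are 0.823 and 1.08.

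The set was also counted against the T-lineage markers, a list of 5 genes that were lower in both Trp53-/- sections. They summed to 967, 1761 and 2702 CPM in the cortex of KO1134, KO1308 and WT1101, and markers of CD4+CD8+ thymocytes, 5 of 5 lower in both Trp53-/- cortices and none at 0, to 185, 1364 and 2399 CPM. Markers of mature T cells went the other way, higher in both Trp53-/- cortices for 4 of 4 genes, at 433, 204 and 119 CPM. Over all tissue they stood at 652, 317 and 199 CPM. In the medulla 1 of the 4 was higher and 2 were lower in both Trp53-/- sections, at 672, 541 and 517 CPM. Replication UMIs per T-lineage UMI were 4.11, 2.89 and 1.85 in cortex, and 3.0, 2.69 and 1.92 over all tissue. By this measure both Trp53-/- sections lay above WT1101, with a ratio of 2.23 and 1.57 in cortex and 1.56 and 1.40 over all tissue, the opposite of the CPM over all tissue. The ratio was smaller in bins selected for a high level of CD3 genes, at 1.05 and 1.12 over all such bins and 1.66 and 1.32 over those in cortex, where the selection raises the denominator by construction. B-cell, fibroblast, medullary epithelial and white fat markers were higher over all tissue in both Trp53-/- sections for 5 of 5, 4 of 4, 6 of 6 and 5 of 5 genes, and their part in the CPM was not tested.

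Related genes outside the set mostly moved the same way between cortex and medulla. Between cortex and medulla 24 of 32 other replication genes were higher with edgeR and 1 was lower, beside 14.6% and 16.9% of all genes tested. The lower one was Pold4, a small subunit of polymerase delta, at 40.0, 27.6 and 31.6 CPM in cortex and 67.6, 49.0 and 46.8 CPM in medulla (log2 fold -0.64, edgeR adjusted p = 0.00429). Its direction is opposite to that of Pold1, Pold2 and Pold3. E2F and S-phase kinase genes were higher for 10 of 10, among them E2f2 (log2 fold 1.14), and mitosis genes for 20 of 20, among them Mki67 (1.18) and Top2a (1.25). Per 100 replication UMIs the cortex held 61.3, 63.5 and 71.4 mitosis UMIs in KO1134, KO1308 and WT1101. The genotype difference in the cortex over rim fold was higher in Trp53-/- for 9 of 32 other replication genes, 2 of 10 E2F and kinase genes and 10 of 20 mitosis genes with edgeR, beside 2.7% of all genes higher and 2.39% lower. DESeq2 called 1.01% of all genes in this comparison.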

How the data were processed

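The authors used BMKMANU S1000 chips and deposited whole-number UMI counts per gene and 4.8 µm spot, aligned with STAR to GRCm38 per the submitters' processing notes and the methods; whether strand was used is not given in the sources used here. The counts carry no normalization. Spots were summed into 27 µm bins, and bins with at least 300 genes, at most 30% mitochondrial UMIs and a connected area of at least 200 bins were kept. Doublets were not called, as a bin holds several cells. Compartments were drawn from windows of 7 x 7 bins by 5 cortical and 6 medullary epithelial genes, with a rim of 100 µm. The share of these genes in a window was set against their share in the whole section. B-cell zones were drawn first, by 3 B-cell genes set against 6 thymus genes.

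Counts were summed per section and compartment and tested with edgeR 4.0.16 (quasi-likelihood, TMM, filterByExpr, Benjamini-Hochberg adjusted p under 0.05 over all genes) in R 4.3.3, with DESeq2 1.42.0 as an alternative. Compartments were compared with the section as a block, since compartments of 1 section come from the same mouse. Levels, intervals and figures were made with Python 3.11.15, numpy 2.4.6, scipy 1.17.1, pandas 2.3.3 and matplotlib 3.10.9. Scripts were tested on simulated data with a fixed spread. There the test of Trp53-/- against WT recovered 64.9% of 2-fold changes over all tissue and 55.6% in cortex. The genotype difference in the cortex fold recovered 12.7% over medulla and 12.2% over rim. For 4-fold changes these shares were 100%, 100%, 92.2% and 91.8%. A genotype test that called 0 can thus miss a 2-fold change. Folds beside WT counted at 1.5 needed at least 100 UMIs over the 3 sections. Gene positions came from GENCODE M21 (GRCm38), which held 99.79% of the 54838 identifiers.

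The members, the lists (other replication genes, E2F and S-phase kinases, mitosis, cell type markers), the roles and the tests were chosen with earlier results of these data known. Named genes were the member with the most UMIs of each role, the 5 highest and 5 lowest ratios to WT per section, the 6 largest and 6 smallest folds of cortex against medulla, and every gene called. Genes named beyond that rule were chosen after their values were seen. The alternatives were bins of 20 and 50 µm, at least 200 or 500 genes, windows of 5 x 5 and 9 x 9 bins, compartments from thymocyte genes, a rim of 200 µm, bins selected by CD3 genes, library sizes without TMM, no filter on low counts, DESeq2, no section block, all 4 compartments in one fit and each section left out. Added after seeing the data were T-lineage denominators, a wider cortex, the genotype difference in the compartment folds and the rim restricted by thymus genes.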

Additional observations from a re-analysis of the deposited data

Results flagged for a closer look

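Opposite directions of the cortex over rim fold in the genotypes brought these sums and genes here. For the sums the difference was not tested as such. The fold of the 44 genes was 0.857 in WT1101 beside 1.25 in KO1134 and 1.30 in KO1308. By role, in the same order, it was 0.874, 1.21 and 1.32 for licensing, 0.901, 1.16 and 1.24 for helicase activation, and 0.871, 1.22 and 1.19 for polymerases and primase. It was 0.839, 1.33 and 1.30 for the clamp group, 0.796, 1.29 and 1.30 for nucleotide supply, 0.976, 1.19 and 1.34 for chromatin copying, and 0.874, 1.36 and 1.34 for fork protection. The 0.976 for chromatin copying in WT1101 lies nearest to 1.

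Outside the set the fold was 0.942, 1.21 and 1.26 for other replication genes, 0.951, 1.25 and 1.22 for E2F and S-phase kinase genes, and 0.869, 1.25 and 1.24 for mitosis genes. Among single replication genes the difference itself passed for 21 of 44 with edgeR, beside 2.7% of all genes higher and 2.39% lower, and for 2 with DESeq2, in a model with 1 residual degree of freedom. It had the smallest adjusted p for Dut (log2 difference 0.88), Pcna (0.82) and Rrm1 (0.74). White fat markers moved with the rim of the Trp53-/- sections. Over rim bins with thymus genes the summed fold was 1.11 in KO1134, 1.09 in KO1308 and 0.854 in WT1101, with fat markers at 529, 691 and 98.5 CPM, and their part in the result was not tested.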

How the results depend on the processing

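No member passed the test of Trp53-/- against WT under any of the 7 alternatives over all tissue or the 11 in cortex. Of all genes 0% to 1.94% passed in the former and 0% to 1.48% in the latter. The mean ratio of the summed set to WT was 0.701 over all tissue and 0.909 in cortex, and became 1.48 and 1.90 per T-lineage UMI. With library sizes only, the median log2 fold of all genes over all tissue was 0.24 rather than 0.09. Shares in brackets are those of all genes called in either direction. Cortex against medulla called 41 genes (31.4%), 36 to 41 with each section left out (23.0% to 32.0%), and 0 without the replicate block (0.00575%). Cortex against rim called 0 (1.25%), and 0 to 9 with each section left out, the 9 coming without WT1101 (9.9%). Cortex against B-cell zone called 15 (5.86%), 26 with library sizes only (8.04%) and 27 without a filter (7.72%). It called 36 with all 4 compartments in one fit (23.8%), 26 with 50 µm bins (12.4%) and 26 with at least 200 genes (12.3%). With 5 x 5 bins it called 23 (9.4%), and without the replicate block 0 (0.259%). The genotype difference over rim called 21 (5.1%), 2 with DESeq2 (1.01%) and 14 to 24 under the other alternatives (2.64% to 6.46%). Among single genes, 652 of 704 folds of cortex against medulla stayed on their side of the threshold, 51 lost it, and Rfc2 turned to -0.049 with compartments from thymocyte genes. The causes of these changes were not tested.

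Compartments pair within a section because they come from the same mouse. No paired analysis of Trp53-/- against WT was possible because only 1 number is shared between the groups and it marks different mice. Leaving out a Trp53-/- section leaves the genotype tests no residual degrees of freedom, and the B-cell zone 1 section. Orc1, Pole2, Gins3 and Chaf1b had the fewest UMIs, so their ratios carry the widest counting intervals.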
